A study of Homo sapiens with 24 samples.

Results

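The 9 genes described here encode the partners of the BCR-ABL fusion kinase, adaptors that bind it, the STAT5 transcription factors and 2 of their classical target genes. They were chosen by name (BCR, ABL1, GRB2, CRKL, GAB2, STAT5A, STAT5B, CISH and PIM1), and their symbols were matched to the Ensembl identifiers of the expression table. All 9 were among its 12285 genes, and none was listed at 0 FPKM at any hour. The samples were 24 RNA-seq libraries of K562, a human chronic myeloid leukaemia line that carries the BCR-ABL fusion. The culture was synchronized by centrifugal elutriation, which sorts cells by size, and grown in RPMI with 10% bovine calf serum (BCS) and penicillin-streptomycin (P/S). From 0 h to 46 h after elutriation, 1 library was made every 2 h, so no hour had a replicate and time was the only variable. How synchronous the culture was at each hour was not measured by these files.

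In chronic myeloid leukaemia, a translocation joins the start of BCR to the kinase-coding part of ABL1. The fusion protein signals without a growth factor. GRB2 docks on its BCR portion and brings in GAB2 and the RAS and PI3K pathways, CRKL is one of its most heavily phosphorylated substrates, and STAT5A and STAT5B are transcription factors that it activates. STAT5 binds DNA and switches on genes such as CISH, a feedback inhibitor of cytokine receptors, and PIM1, a serine/threonine kinase that promotes survival and growth. Most of this signalling runs through phosphorylation, which RNA levels do not measure. Gene-level FPKM (fragments counted per unit of transcript length and of library size) also cannot separate fusion transcripts from those of the normal BCR and ABL1 alleles. STAT5A and STAT5B are closely related paralogs, and how reads shared between them were assigned is not given in the sources used here.

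The promoters of the 2 STAT5 target genes are shown because they differ in the sequence to which STAT5 binds. In the 250 bases before each annotated start (RefSeq, GRCh38.p14), the motif TTCNNNGAA, which reads the same on both strands, was searched in 12 promoters of the 9 genes. CISH held 4 matches and the others held 0, where 6.57% of 35116 promoters held at least 1 match and 0.0142% held 4 or more. The CISH window lies at chr3:50611775-50612024 on the minus strand and that of PIM1 at chr6:37169902-37170151 on the plus strand, with matches in capitals.
CISH: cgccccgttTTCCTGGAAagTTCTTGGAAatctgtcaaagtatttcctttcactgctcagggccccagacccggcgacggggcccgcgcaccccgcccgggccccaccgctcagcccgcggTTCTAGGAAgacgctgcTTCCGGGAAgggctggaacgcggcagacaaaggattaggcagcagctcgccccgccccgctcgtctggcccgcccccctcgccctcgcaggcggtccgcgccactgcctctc
PIM1: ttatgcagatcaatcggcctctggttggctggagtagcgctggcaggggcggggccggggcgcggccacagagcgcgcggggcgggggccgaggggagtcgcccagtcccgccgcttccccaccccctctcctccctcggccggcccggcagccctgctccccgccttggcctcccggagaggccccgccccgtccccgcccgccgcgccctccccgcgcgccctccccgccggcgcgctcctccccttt
The 4 CISH matches spanned 241 to 233, 230 to 222, 129 to 121 and 112 to 104 bases before the start. Among the 9 genes of a broader list of STAT5 targets that had a promoter, 1 held a match. A match is a run of letters and not a measured binding site, and sites outside this window were not searched.

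As the cells' identity goes, all 14 erythroid markers searched were in the table, with means of 47.4 to 2225 FPKM. Of genes listed as markers of other cell types, CD3D and PTPRC of the lymphoid list, 2 of 5 monocyte genes (LYZ and CD68) and 1 of 6 fibroblast genes (COL1A2) were present. PTPRC is expressed across leukocytes and does not mark lymphoid cells alone. CD3E, MS4A1, CD14 and COL1A1 were not among the genes of the table. Summed FPKM per library was 456791 to 520382 over 22 hours, 566247 at 16 h and 591309 at 18 h. The study treats these last 2 as irregular and proposes that such libraries have a technical origin. In the main results of the 9 genes, drift and correlation leave them out, whereas means, medians and order in time include them. The study also marks 32 h as mildly irregular. That library was kept here, and without it 0 of the 9 genes were called for order in time and 2 for drift, as with it. With it, 13% of all genes were called for order in time, 19.6% for upward and 12.3% for downward drift. The shares of all genes without 32 h are not given. Read depth is unknown, since the files hold no counts.

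Over the 24 hours the 9 genes spanned a wide range of levels, from PIM1 at 171 ± 55.6 FPKM (mean ± SD over hours, n = 24 libraries) to GAB2 at 8.71 ± 1.66 FPKM. Between them came STAT5A at 136 ± 12.6, CRKL at 129 ± 16.3, GRB2 at 56.6 ± 4.52, STAT5B at 53.7 ± 6.21, ABL1 at 52.1 ± 4.66, BCR at 37.2 ± 4.71 and CISH at 27.0 ± 4.74 FPKM. This SD is spread over time and not over replicates. The order had 3 steps, where the ranges of neighbouring genes did not overlap: CRKL lay above GRB2, ABL1 above BCR and CISH above GAB2 at all 24 hours. The ranges of ABL1 and BCR nearly met, with a lowest ABL1 value of 43.9 FPKM and a highest BCR value of 43.8. PIM1 exceeded STAT5A, and STAT5A exceeded CRKL, at 19 of 24 hours each. GRB2 exceeded STAT5B at 16 hours and STAT5B exceeded ABL1 at 15, so the order of these 3 genes changed with the hour.

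The genes differed as much in how steady they were. GRB2 had a coefficient of variation of 4.95% over the 22 hours without 16 h and 18 h, and only 0.735% of genes varied less. PIM1 had 30.3%, and 90.1% of genes varied less than it. Its level spanned 4.55-fold between 2 h and 46 h, while the other 8 genes spanned 1.21-fold (GRB2) to 1.94-fold (GAB2) between their lowest and highest of those hours.

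**Figure D1:**
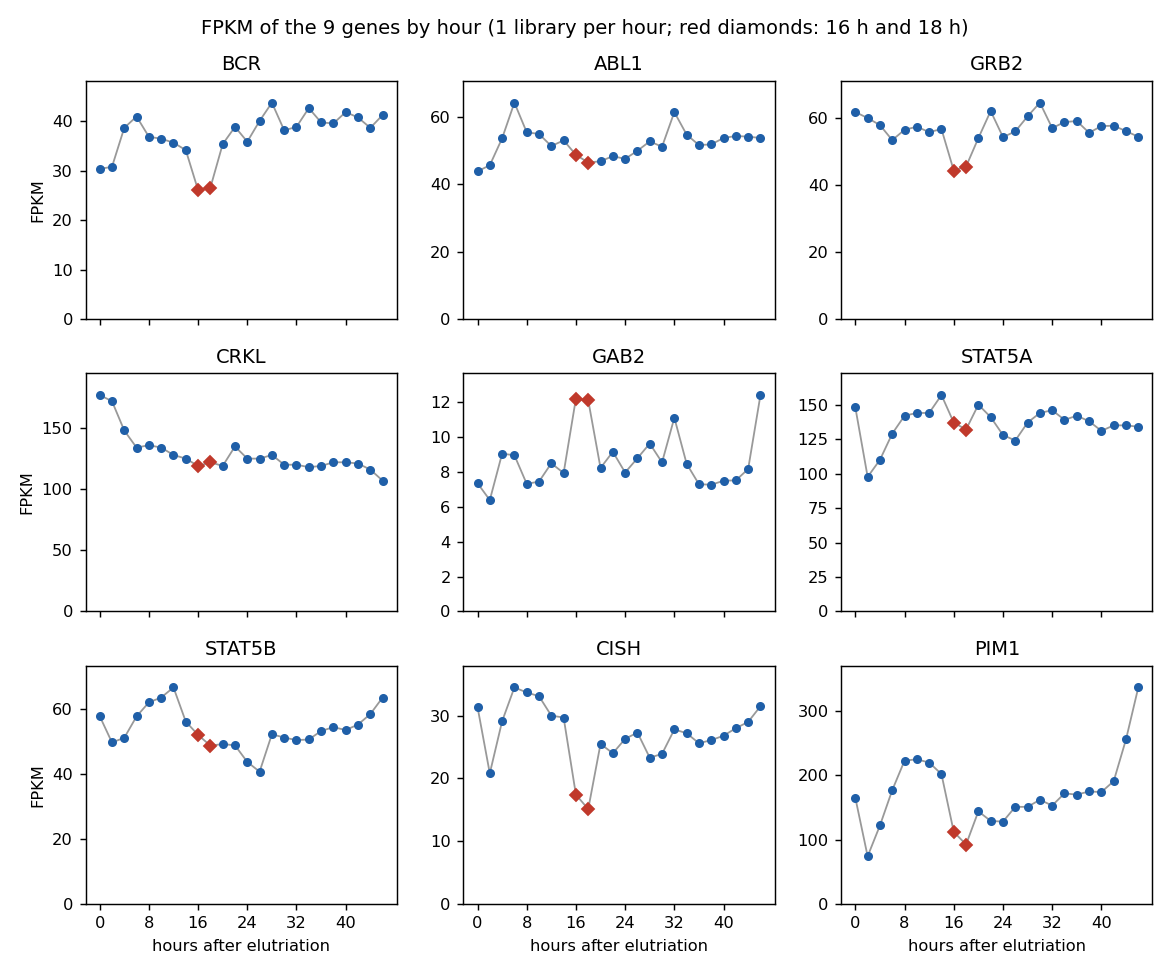
FPKM of each gene (vertical axis, starting at 0) against hours after elutriation, with 1 library per point and 16 h and 18 h as red diamonds. PIM1 runs from 74.0 FPKM at 2 h to 337 at 46 h, CRKL falls from 177 at 0 h to 107 at 46 h, and BCR, GRB2 and CISH are lowest at 16 h or 18 h.

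The fusion partners were measured first. BCR, a multidomain protein with kinase and GTPase-activating activity, was lowest at 16 h (26.1 FPKM) and 18 h (26.6), had a median of 38.7 and was highest at 28 h (43.8). Without those libraries its lowest values were the first hours of the culture, 30.4 at 0 h and 30.8 at 2 h. ABL1, the tyrosine kinase, was also lowest at 0 h (43.9 FPKM), with a median of 52.3, and was highest at 6 h (64.3) and 32 h (61.5). Both genes thus started low.

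ABL1 had 1.36 times the FPKM of BCR at the median hour. The ratio stayed between 1.21 (28 h) and 1.58 (32 h) over 22 libraries and was 1.87 at 16 h and 1.75 at 18 h. Both irregular libraries therefore lay outside the range of all the others, through a low BCR rather than a high ABL1. FPKM over whole genes does not give the share of either gene's reads that comes from the fusion.

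Of the adaptors, GRB2, which links tyrosine kinases to RAS through SOS1, was 44.4 FPKM at 16 h and 45.6 at 18 h. At the other hours it kept to between 53.5 (6 h) and 64.7 (30 h). CRKL, an SH2 and SH3 adaptor, started at 177 FPKM, with 172 at 2 h and 148 at 4 h, had already reached 134 by 6 h, and had a median of 124. It ended at 107 at 46 h, its lowest value, and 16 h (119) and 18 h (122) did not stand out. GAB2, a docking protein for PI3K and the phosphatase SHP2, was lowest at 2 h (6.38 FPKM), had a median of 8.34 and was highest at 46 h (12.4), next to 12.2 at 16 h and 12.1 at 18 h. CRKL to GAB2, as a ratio of FPKM, went from 24.0 at 0 h and 27.0 at 2 h to 8.64 at 46 h.

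STAT5A was 148 FPKM at 0 h, lowest at 2 h (97.6) and 4 h (110), and highest at 14 h (157), with a median of 138. After 4 h it stayed between 124 (26 h) and 157. STAT5B had a broad early high, up to 66.5 FPKM at 12 h, and its lowest values at 24 h (43.6) and 26 h (40.6), with a median of 52.6. It was at 63.4 FPKM again at 46 h. STAT5A was the more abundant at every hour, by 2.59 times at the median, from 1.97 at 2 h to 3.07 at 26 h. The ratio did not leave this range at 16 h (2.63) or 18 h (2.71).

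The STAT5 target genes came next. CISH was 31.4 FPKM at 0 h, went down to 20.8 at 2 h, was back at 29.1 by 4 h, reached its highest value at 6 h (34.5), and was lowest at 16 h (17.4) and 18 h (15.1), with a median of 27.3. PIM1 was 165 FPKM at 0 h, less than that at 2 h (74.0) and at 4 h (122), and 225 by 10 h. After the irregular libraries (112 at 16 h, 92.3 at 18 h), it passed from 144 at 20 h through 191 at 42 h and 256 at 44 h to 337 at 46 h. At 46 h CISH was 31.5 FPKM, so the 2 targets parted at the end of the culture: PIM1 had 6.44 times the FPKM of CISH at the median hour, 3.56 times at 2 h and 10.7 times at 46 h.

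The first question was whether any of these genes followed a 24 h rhythm, the period the study assumed for the cell cycle. None passed: 0 of 9 genes were called by the JTK statistic, a rank test of order in time with a permutation p from 100000 orderings, at an adjusted p of 0.05 over all 12285 genes. Of all genes, 13% were called. At an unadjusted p under 0.05, 1 of the 9 was called, against 30.2% of all genes. The F test of a 24 h cosine and sine in limma, over 22 libraries, called 0 of the 9 and 14.2% of all genes. ABL1 came closest (permutation p = 0.0498, adjusted p = 0.165), with its fitted peak at 8 h. In 1 of the alternatives, the removal of a straight line from each gene, ABL1 had an adjusted permutation p of 0.0464 and was called. BCR was at 0.0515 in that alternative, against 0.678 in the main test, and was not called. In the main test the next lowest adjusted permutation p-values were 0.239 for STAT5A and 0.255 for CRKL. Those of the others lay between 0.330 (STAT5B) and 0.724 (GAB2).

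The second question was whether levels drifted over the culture. A slope per 24 h was fitted to log2(FPKM + 1) with limma, beside a 24 h cosine and sine, over the 22 libraries other than 16 h and 18 h. BCR rose and CRKL fell, and the other 7 genes did not pass. BCR had a slope of 0.19 ± 0.04 (SE; 1.14-fold per 24 h, limma adjusted p = 0.00119). CRKL had a slope of -0.23 ± 0.04 (0.854-fold, limma adjusted p = 0.000376). Of all genes tested, 19.6% had an upward and 12.3% a downward call, so 1 of 9 in each direction is no more than the background. The median slope was 0.01 for the 9 genes and 0.02 for all genes.

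The 2 calls had different shapes. CRKL was highest in its first 3 libraries, which were 177, 172 and 148 FPKM. Without 0 h, 2 h and 4 h its slope was -0.13 and still passed (limma adjusted p = 0.00870), against 0.14 for BCR (limma adjusted p = 0.0140). Of the genes that did not pass, GAB2 had a slope of 0.18 ± 0.07 (limma adjusted p = 0.0558), ABL1 of 0.08 ± 0.04 (0.181) and PIM1 of 0.20 ± 0.15 (0.323). PIM1 thus had about the slope of BCR but a larger SE. STAT5B at -0.08 ± 0.06, CISH at -0.09 ± 0.07, STAT5A at 0.01 ± 0.06 and GRB2 at 0.01 ± 0.04 had limma adjusted p-values from 0.365 to 0.916. These p-values treat libraries as independent, although they come from 1 culture: residuals of neighbouring hours correlated at 0.50 for CRKL, 0.45 for STAT5B and 0.08 for BCR. With every 4 h from 0 h, BCR had a slope of 0.19 (limma adjusted p = 0.118) and CRKL of -0.21 (0.114), and neither passed. With every 4 h from 2 h, CRKL passed at -0.25 (limma adjusted p = 0.0469) and BCR did not at 0.19 (0.120).

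**Figure D2:**
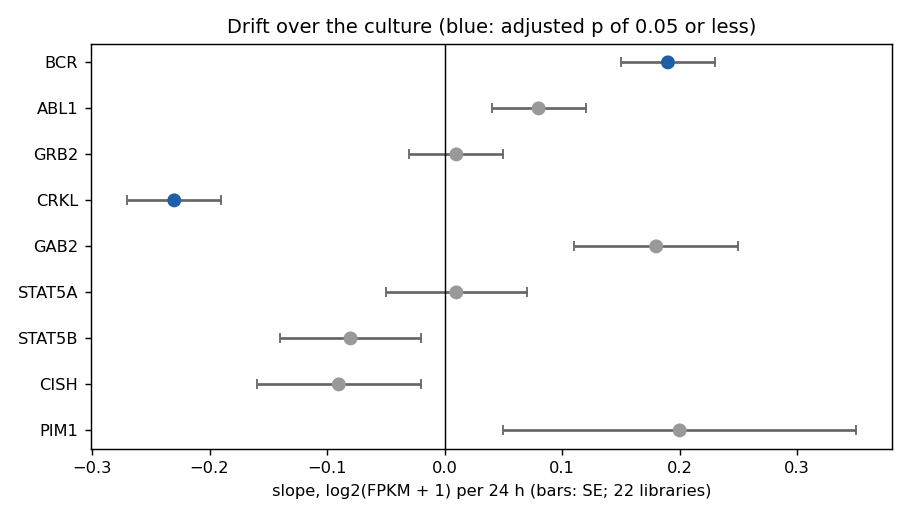
Fitted slope of each gene in log2(FPKM + 1) per 24 h (horizontal axis) with its standard error, over 22 libraries; blue points passed an adjusted p of 0.05. BCR at 0.19 and CRKL at -0.23 passed, and PIM1 at 0.20 has the widest error.

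Levels of genes listed as markers of other cell types, among them the general leukocyte gene PTPRC, moved over the same hours. PTPRC had a slope of 0.74 and LYZ of 0.85, and CD68 (1.16), CD3D (0.58) and COL1A2 (0.38) also rose by the same limma test. Of 14 erythroid markers, 2 rose and 6 fell, where 19.6% of all genes rose and 12.3% fell. Summed over the list, monocyte markers ran from 16.6 to 49.8 FPKM per library (22 libraries), and PTPRC ran from 14.3 FPKM at 6 h to 44.6 at 46 h. Their part in the slopes of BCR and CRKL was not tested. In bulk RNA, fewer cells that express a gene and less of its RNA per cell cannot be told apart.

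At 16 h and 18 h, each gene was set against a line drawn from its 14 h to its 20 h value on log2(FPKM + 1), as the mean deviation of the 2 hours, with no test since each hour is 1 library. None of the 9 genes was at least 2-fold off, while 8.95% of all genes lay at least 2-fold above and 7.11% at least 2-fold below. Of the 9 genes, 8 were below the line, as were 5139 of all 12253 genes. The median was -0.19 for the 9 genes, against 0.14 over all genes. PIM1 deviated by -0.74 (0.597-fold), CISH by -0.73 (0.602-fold), BCR by -0.39, GRB2 by -0.30 and STAT5A by -0.19. GAB2 alone was above, by 0.54 (1.45-fold), and ABL1 (-0.07), STAT5B (-0.06) and CRKL (-0.01) lay near the line. With upper-quartile scaling these 3 were at -0.30, -0.30 and -0.26 and BCR was at -0.62.

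The same measure at 16 other pairs of consecutive hours shows the usual size of such deviations. BCR, GRB2, GAB2 and CISH were farther off at 16 h and 18 h than at any of the 16 pairs. The share of all genes of which this holds was not counted, so it cannot be called particular to these genes. PIM1 and STAT5A each had 1 pair farther off, 2 h and 4 h, with -0.84 for PIM1 and -0.41 for STAT5A. So the 2 lowest stretches of PIM1 were of similar depth.

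**Figure D3:**
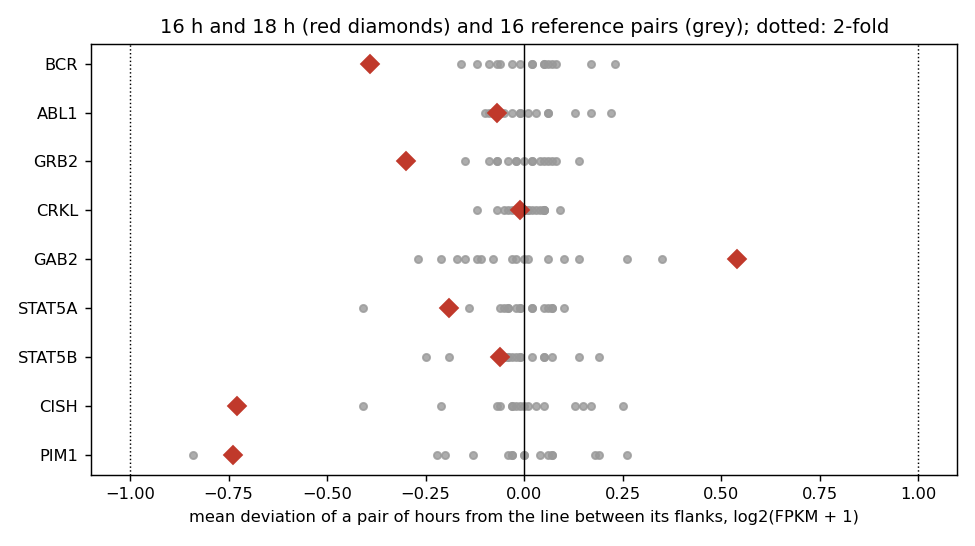
Mean deviation of 2 consecutive hours from the line between their flanks in log2(FPKM + 1) (horizontal axis) for each gene, at 16 h and 18 h (red diamonds) and at 16 reference pairs (grey), with dotted lines at 2-fold. CISH at -0.73, BCR at -0.39, GRB2 at -0.30 and GAB2 at 0.54 lie beyond all of their grey points, and no gene reaches the dotted lines.

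Across the 12148 genes with a known GC content, the deviation and GC had a Pearson r of -0.51, a description over genes that share the same libraries. The longest BCR transcript had 60.6% GC, more than 88.4% of genes, and ABL1 had 59.9%. With the smooth trend of the deviation with GC removed, an alternative added after the data were seen, BCR went from -0.39 to 0.09, ABL1 from -0.07 to 0.37 and STAT5A from -0.19 to 0.14. These values are distances from the trend at each gene's GC and no longer from the line between 14 h and 20 h. BCR, ABL1 and STAT5A lay above that trend. CISH was at -0.45, PIM1 at -0.49, GRB2 at -0.24 and GAB2 at 0.71 after the same step. The order of the 9 genes at these hours therefore changed for the GC-rich fusion partners, and CISH and PIM1 were the lowest either way.

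The hour at which the STAT5 targets were lowest among the other libraries was 2 h, a comparison chosen after its values were seen. PIM1 was 0.525 times the mean of its neighbours 0 h and 4 h on the log2(FPKM + 1) scale (-0.93). CISH followed at 0.698-fold (-0.52), STAT5A at 0.767-fold (-0.38) and GAB2 at 0.806-fold (-0.31). PIM1 was thus the 1 of 9 genes at least 1.5-fold below, where 1.95% of all genes were. Only 0.449% of genes lay lower than PIM1 at this hour, 2.73% lower than CISH and 6.33% lower than STAT5A, while GRB2 (0.01) and CRKL (0.09) were at their neighbours' level. The 2 h level is 1 library, and its own error is not known.

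Other STAT5 targets were low in the same library. ID1, an inhibitor of differentiation factors, was 26.3 FPKM at 0 h, 12.2 at 2 h and 22.2 at 4 h (-0.93). PIM2, a paralog of PIM1, was 87.0, 54.9 and 81.5 FPKM (-0.61). These were the 2 of 12 listed targets at least 1.5-fold below, and the list had a median of -0.19 against -0.01 over all genes. PIM3 (-0.52), MYC (-0.39) and BCL2L1 (-0.32) were lower by less, and SOCS1 (0.27), CCND1 (0.21), SOCS3 (0.14) and SOCS2 (0.05) were not lower. JAK2, a kinase upstream of STAT5 at cytokine receptors, was 11.6 FPKM at 0 h, 8.81 at 2 h and 15.2 at 4 h (-0.55). In the lists of adaptors, RAS-MAPK, PI3K-AKT and JAK-STAT genes, 0 of 66 genes were at least 1.5-fold below, which is near the 1.95% of all genes.

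At the end of the culture PIM1 and GAB2 were up. From 42 h to 46 h PIM1 was up 1.76-fold (0.82) and GAB2 1.57-fold (0.65) on log2(FPKM + 1), the 2 of 9 genes at least 1.5-fold up, where 2.45% of all genes were. This comparison too was chosen after its values were seen and has no replicate. STAT5B was 1.15-fold and CISH 1.12-fold higher, and STAT5A (0.997-fold) and BCR (1.01-fold) were level. PIM1 was already 256 FPKM at 44 h, whereas GAB2 was 8.16 FPKM there. Against 44 h neither was at least 1.5-fold up on this scale. SOCS2, a STAT5-induced suppressor of cytokine signalling, was 75.3 FPKM at 42 h, 80.1 at 44 h and 125 at 46 h (0.73). It was the 1 of 12 listed STAT5 targets at least 1.5-fold up from 42 h. The list had a median of 0.13, against 0.01 over all genes, and PIM3 (-0.17), CCND3 (-0.13) and SOCS3 (-0.01) were not up.

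**Figure D4:**
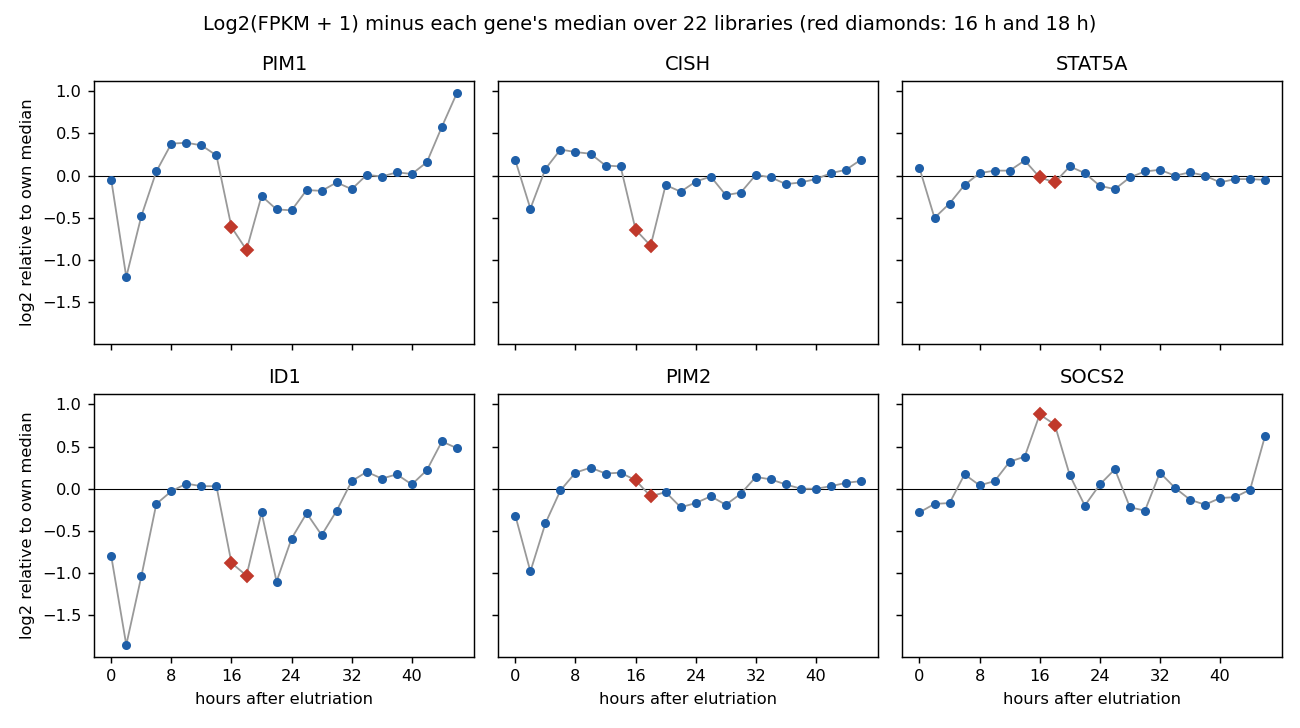
Log2(FPKM + 1) of 6 genes minus each gene's own median over 22 libraries (vertical axis) against hours after elutriation, with 16 h and 18 h as red diamonds. PIM1, CISH, STAT5A, ID1 and PIM2 have a low at 2 h that SOCS2 lacks, and PIM1 and SOCS2 are high at 46 h.

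Among themselves, the 9 genes fell into loose groups when Pearson r of log2(FPKM + 1) was taken over the 22 libraries. PIM1 and CISH (r = 0.70), PIM1 and STAT5B (0.69), CISH and STAT5B (0.62) and PIM1 and STAT5A (0.58) were positively correlated. BCR and ABL1 had r = 0.61, and CRKL ran against BCR (-0.69) and PIM1 (-0.57). The groups were not separate: ABL1 had r = 0.50 with CISH and 0.43 with PIM1, BCR had 0.48 with GAB2, and STAT5A with CISH only 0.33. STAT5A and STAT5B, although they are paralogs, had only r = 0.33. The points share libraries and the drift of the culture, and these values are descriptions. With 16 h and 18 h included, BCR and GRB2 went from -0.13 to 0.58 and CISH and GRB2 from -0.49 to 0.47, so those pairs were set by these 2 libraries.

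**Figure D5:**
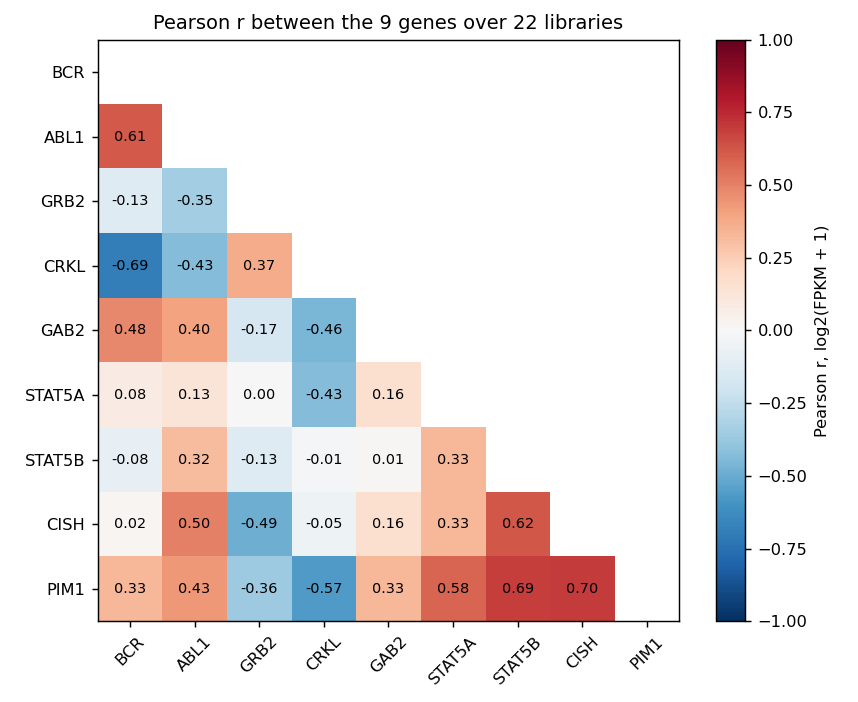
Pearson r between each pair of the 9 genes (rows and columns) over 22 libraries, on log2(FPKM + 1), from blue (negative) to red (positive). The red corner holds STAT5A, STAT5B, CISH and PIM1, with r from 0.33 for STAT5A and CISH to 0.70 for CISH and PIM1. ABL1 with CISH is at 0.50, and BCR with CRKL is the bluest at -0.69.

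Among the 7169 genes whose mean reached 10 FPKM, the most similar time course to PIM1 was that of TBPL1 (r = 0.87), a TATA-binding protein relative, followed by ID1 (0.86). For CISH these were UBAC1 (0.82) and the iron transporter SLC11A2 (0.80), for STAT5A TIMM9 (0.88) and ANKRD27 (0.86), and for STAT5B RHOT1 (0.79) and FAM83A (0.78). ABL1 was most like TCEAL8 and the kinase AKT2 (0.89 each), and BCR like LPCAT1 (0.84) and SLC38A6 (0.83). CRKL was most like BGLT3 (0.90), a noncoding RNA of the beta-globin locus, and the glycolytic enzyme GPI (0.88). GRB2 had SCARNA9 (0.79) and UBB (0.77), and GAB2 had NT5DC1 (0.82) and NARS1 (0.81). Which genes came first depended on the measure: with Spearman's rho, 3 of the 18 were named again.

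Of 90 further genes of the pathway in 5 lists, 78 were in the table. By the drift test 16 rose (20.5%, against 19.6% of all genes) and 6 fell (7.69%, against 12.3%). Order in time over all 24 libraries was called for 13 (16.7%, against 13%). At 16 h and 18 h, 10 were at least 2-fold above (12.8%, against 8.95%) and 2 at least 2-fold below their flanks (2.56%, against 7.11%). Their median slope was 0.04, against 0.02 over all genes, and their median deviation at 16 h and 18 h was 0.29, against 0.14.

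Of the adaptor and phosphatase genes, 18 of 22 were in the table. Of these 6 rose and 0 fell, where 19.6% of all genes rose and 12.3% fell. DOK2, a docking protein that restrains RAS, had a slope of 0.62 (limma adjusted p = 3.45e-05) but a mean of 1.52 FPKM, and ABI2 had a slope of 0.29. At 16 h and 18 h, SOS1, the exchange factor that GRB2 carries to RAS, was at 75.1 and 98.4 FPKM, between 17.5 at 14 h and 17.9 at 20 h (2.22). GAB1 was also above (1.41), as were SOS2 and CBLB (1.13 each). In the same libraries GRB2 was below its flanks (-0.30) and GAB2 above (0.54), and 8.95% of all genes were at least 2-fold above. A relation between these genes was not tested, and no values with the GC trend removed are given for SOS1 and GAB1.

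Of RAS-MAPK genes, 15 of 16 were in the table. ETV5, a transcription factor, rose (slope 0.35), and HRAS (-0.34) and the RAF kinase ARAF (-0.28) fell, while MAPK3 (1.15) and the RAS inactivator NF1 (1.14) were at least 2-fold above at 16 h and 18 h. Of PI3K-AKT genes, 16 of 18 were in the table. The catalytic subunits PIK3CD (0.36) and PIK3CB (0.23) rose and the regulatory subunit PIK3R3 (-0.27) fell. PIK3R1, another regulatory subunit, went from 2.61 FPKM at 14 h to 9.65 and 12.8 and back to 3.28 at 20 h (1.63).

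Of JAK-STAT genes, 17 of 19 were in the table. Here 4 rose and 2 fell, against 19.6% up and 12.3% down over all genes. STAT3 rose with a slope of 0.47, from 34.4 FPKM at 2 h to 71.9 at 46 h, and STAT6 with 0.40, unlike STAT5A (0.01) and STAT5B (-0.08), which did not pass. The difference between these slopes was not tested. The phosphatase PTPN2 (-0.16) and SOCS5 (-0.13) fell, and PIAS1 (1.89) and PTPN2 (1.26) were at least 2-fold above at 16 h and 18 h.

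Of further STAT5 targets, 12 of 15 were in the table. The cyclins CCND1 (0.69) and CCND2 (0.34) and ID1 (0.51) rose, PIM3 (-0.21) fell, and PIM3 (-1.20) and SOCS3 (-1.07) were at least 2-fold below at 16 h and 18 h. The list's deviations at those hours ran from -1.20 (PIM3) to 0.55 (SOCS2). Their median was -0.19, the same as that of the 9 genes, whereas the 4 other lists had medians of 0.29 to 0.45. The GC trend was not removed in these medians, and no list median without it is given.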

How the data were processed

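RNA-seq of 24 samples of the K562 cell line was analysed, 1 per hour of sampling, assigned by the labels. The deposited FPKM values had been made by the authors with STAR, Cufflinks2 and Cuffnorm on GRCh37, per the submitters' processing notes. Other version details, annotation and strandedness are not given in the sources used here. The other deposited table, a score that the authors made by quantile normalization of Z-scores, was used as an alternative only. Genes in the table had at least 1 FPKM in at least 12 hours. Of the 12285 identifiers, 12123 had a symbol.

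Tests used log2(FPKM + 1), and limma 3.58.1 in R 4.3.3 with Benjamini-Hochberg adjustment over the 12253 genes whose mean reached 1 FPKM. The JTK test used 12 phases of a 24 h cosine and all 24 libraries. Fold changes on this scale understate those of low genes. Both were tested on simulated data. The members, lists and comparisons were chosen with earlier results of these data known. Named genes were all members, the 2 most similar genes of each, and the 2 largest calls per direction and list, and others were chosen after their values were seen. Results of 2 genes are not reported here. GC content came from the longest GENCODE 29 transcript (99.1% of genes). The build of the promoters differs from that of the files. Alternatives changed 1 choice at a time (periods, scaling, pseudocount, filters, libraries left out), except that the F test of cosine and sine also used 22 libraries.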

Additional observations from a re-analysis of the deposited data

How the results depend on the processing

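No paired analysis was possible because each hour has 1 library. The drift calls of BCR and CRKL were kept under each library left out in turn, with slopes of 0.17 to 0.21 and -0.25 to -0.19, and 2 to 3 of the 9 genes were called. GAB2 or ABL1 was the added gene: ABL1 without 6 h (adjusted p = 0.0467, limma), and GAB2 without 12 h, 14 h, 22 h, 30 h or 36 h and with upper-quartile scaling (adjusted p from 0.0360 to 0.0495, limma). With every 4 h from 0 h, 0 genes were called, and with every 4 h from 2 h, 1 (CRKL). These series have fewer libraries: 654 and 1306 genes of all were called, against 3914. With 16 h and 18 h included, 2731 were called.

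Slopes that did not pass changed sign as follows. Over the libraries left out in turn, STAT5A ran from -0.04 to 0.06 and GRB2 from -0.01 to 0.03. STAT5A was -0.03 with median centring and every 4 h from 0 h, -0.05 without 0 h, 2 h and 4 h, -0.04 without 2 h, -0.01 without 4 h or 30 h, and 0.00 without 28 h or 32 h. GRB2 was -0.03 with median centring, -0.01 with the slope alone or without 30 h, and 0.00 with upper-quartile scaling or without 6 h or 20 h. CISH was 0.05 over all 24 libraries and 0.01 every 4 h from 2 h, and PIM1 was -0.02 every 4 h from 0 h.

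Order in time called 0 of 9 genes under 31 of 32 alternatives and 1 with a straight line removed. Over all genes, 239 were called with a 20 h and 410 with a 28 h period, against 1602. At 16 h and 18 h, 2 genes (CISH and PIM1) were off by 1.5-fold, and 0 by 2-fold under each scaling, with upper-quartile values of -0.96 and -0.99. Of all genes, 4993 were off by 1.5-fold, 1968 by 2-fold and 1148 by 2-fold with the GC trend removed. Of the 18 most similar genes, 3 were shared with Spearman's rho, 3 over all 24 libraries and 11 with a mean of at least 1 FPKM. At 46 h, 0 genes were 1.5-fold above 44 h. Without read counts, the error of a single value is unknown. The cause of these differences was not tested.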

Other observations

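Order in time was called for 13 of the 78 other pathway genes, 16.7% of them against 13% of all genes. The difference between these 78 genes and the 9, of which 0 were called, was not tested. The following were chosen after their values were seen. The erythropoietin receptor EPOR was highest at 6 h, 19.1 FPKM at 4 h and 10.6 at 0 h and at 46 h. Its lowest values were at 16 h (8.37) and 18 h (5.93), and its adjusted permutation p was 0.00564. PIM2 was lowest at 2 h (54.9 FPKM) and highest at 10 h (130), with an adjusted permutation p of 0.00777. HRAS was 40.6 FPKM at 8 h and 16.9 at 46 h, with an adjusted permutation p of 0.00777 and a drift call besides. SPRED1, an inhibitor of RAS signalling, was lowest at 4 h (6.25 FPKM) and highest at 44 h (9.14) of the 22 libraries, was 9.81 at 16 h and 10.4 at 18 h, and had an adjusted permutation p of 0.00436 over all 24. Order in time was called for the 78 genes over all 24 libraries, and no call without 16 h and 18 h is given for them. Whether the genes named here differ from PIM1 or STAT5A in rhythm was not tested.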
